A study of Saccharomyces cerevisiae with 6 samples.

Results

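*HAC1* (YFL031W) was followed through 6 tables of splice junctions from *Saccharomyces cerevisiae*. All rows that carry its gene name were taken, which makes 1 gene of 282, 1 annotated intron of 293 and 21 junctions of 5274, namely the annotated junction and 20 others. The libraries came from 3 *prp18Δupf1Δ* and 3 *upf1Δ* samples of the BY4741 background. The *prp18Δupf1Δ* cells carry *prp18Δ::kanMX6* and so lack Prp18p, a splicing factor of the second catalytic step. Both strains carry a *upf1Δ* deletion, written *upf1-delta::HIS3MX6* in the genotype labels and with the marker *HIS3* in the growth protocol. They lack Upf1p, the helicase of nonsense-mediated mRNA decay, so no strain here has intact decay. All cells were taken in mid-log growth from YPD, a rich medium, and the labels name no agent that disturbs protein folding. Each library gives, for an intron, the reads of its spliced junction and its unspliced reads, the mean of the reads across its unspliced 5′ and 3′ ends. Splicing efficiency (SE) is the spliced reads over the spliced plus unspliced reads.

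*HAC1* encodes the transcription factor of the unfolded protein response, which raises the capacity of the endoplasmic reticulum to fold proteins. Its mRNA leaves the nucleus with the intron still in it, and translation is held back while the intron is present. When unfolded proteins gather in the endoplasmic reticulum, the membrane kinase and endonuclease Ire1p cuts both ends of the intron and tRNA ligase, Trl1p, joins the exons. No lariat is formed and no spliceosome is needed, which makes *HAC1* a control intron outside the reach of the spliceosome. *IRE1*, *TRL1* and their fellow genes of this pathway could not be followed, since 0 of 16 pathway genes looked up are in the tables, and neither are *PRP18* or *UPF1*.

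The gene lies on chromosome VI from 75179 to 76147 on the plus strand of R64, with a first coding exon of 661 nt, an intron of 252 nt at chrVI:75840-76091 and a second coding exon of 56 nt. The bases at the cuts are shown because they set this intron apart from the spliceosomal ones in the same tables. In the 30 bases across each end, capitals mark the 3 bases before the cut and the 4 bases after it. In the ligated exons, capitals mark the 3 bases from exon 1 and the 4 from exon 2.
*HAC1* 5′ end, chrVI:75825-75854, plus strand: attggcgtaatcCAGCCGTgattacgatga
*HAC1* 3′ end, chrVI:76077-76106, plus strand: tgcttgtactgtCCGAAGCgcagtcaggtt
*HAC1* ligated exons: attggcgtaatcCAGAAGCgcagtcaggtt
*ACT1*, the actin gene, carries a usual intron. There capitals mark the first 6 and the last 3 bases of the intron.
*ACT1* 5′ end, chrVI:54672-54701, minus strand: taacaatggattctgGTATGTtctagcgct
*ACT1* 3′ end, chrVI:54363-54392, minus strand: atattatatgttTAGaggttgctgctttgg

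The *HAC1* intron starts with CCGTGA and ends with CCG. Of the 293 introns, 289 (98.6%) started with GT, 222 of them with GTATGT, and 291 ended in AG. *HAC1* was the only intron with neither. Both of its cuts fall after the G at the third position of CNGNNGN, read on the gene's strand with no overlap between the matches. This motif spanned the 5′ end of 1 intron of 293 (0.341%), *HAC1* itself, the 3′ end of 14 (4.78%), and both ends of *HAC1* alone. A branchpoint-like TACTAAG lies at chrVI:76058-76064 of *HAC1*, a match that no other intron had as its best, while 244 introns had TACTAAC. Its A is 28 nt from the 3′ end, against a median of 33 nt. Folded on its own, the 3′ end took the same hairpin in windows of 24, 32 and 40 nt, with a loop of 7 nt closed by a stem of 5 bp, the cut after loop base 3, and energies of -4.2, -8.9 and -9.0 kcal/mol. The 5′ end was folded with the cut in a loop of 4 nt, after loop base 2, but this loop was closed by a stem of only 1 bp beside an unpaired base, at -7.0, -7.0 and -8.2 kcal/mol. The coding sequence read through the ligated exons runs for 238 codons before its stop. With the intron kept it runs for 230, since a stop begins at position 75869, after 29 nt of intron. The forms thus differ only in their ends, of 18 codons after ligation and 10 without it.

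Little of the *HAC1* RNA was ligated in either strain. The annotated junction had 31, 37 and 42 reads in *prp18Δupf1Δ* and 39, 37 and 86 in *upf1Δ*. The third *upf1Δ* library was the highest, and the other 5 lay close together. Unspliced reads came to 2206, 1549 and 1200 in *prp18Δupf1Δ*, against 3257.5, 2597.5 and 2298 in *upf1Δ*, so that every *prp18Δupf1Δ* library was below every *upf1Δ* library. These are raw counts, and the *prp18Δupf1Δ* libraries were shallower, with 791819 to 1250953 annotated junction reads against 1347936 to 1502384. Scaled to annotated junction reads, the unspliced reads of the strains overlapped, as given below. The SE was 1.39%, 2.33% and 3.38% in *prp18Δupf1Δ*, against 1.18%, 1.40% and 3.61% in *upf1Δ*. The strains overlapped, and the lowest and the highest of the 6 values were both in *upf1Δ*. The 95% Wilson intervals were 0.978 to 1.96%, 1.70 to 3.20% and 2.51 to 4.54% in *prp18Δupf1Δ*, and 0.867 to 1.61%, 1.02 to 1.93% and 2.93 to 4.43% in *upf1Δ*. They cover counting error only.

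**Figure D1:**
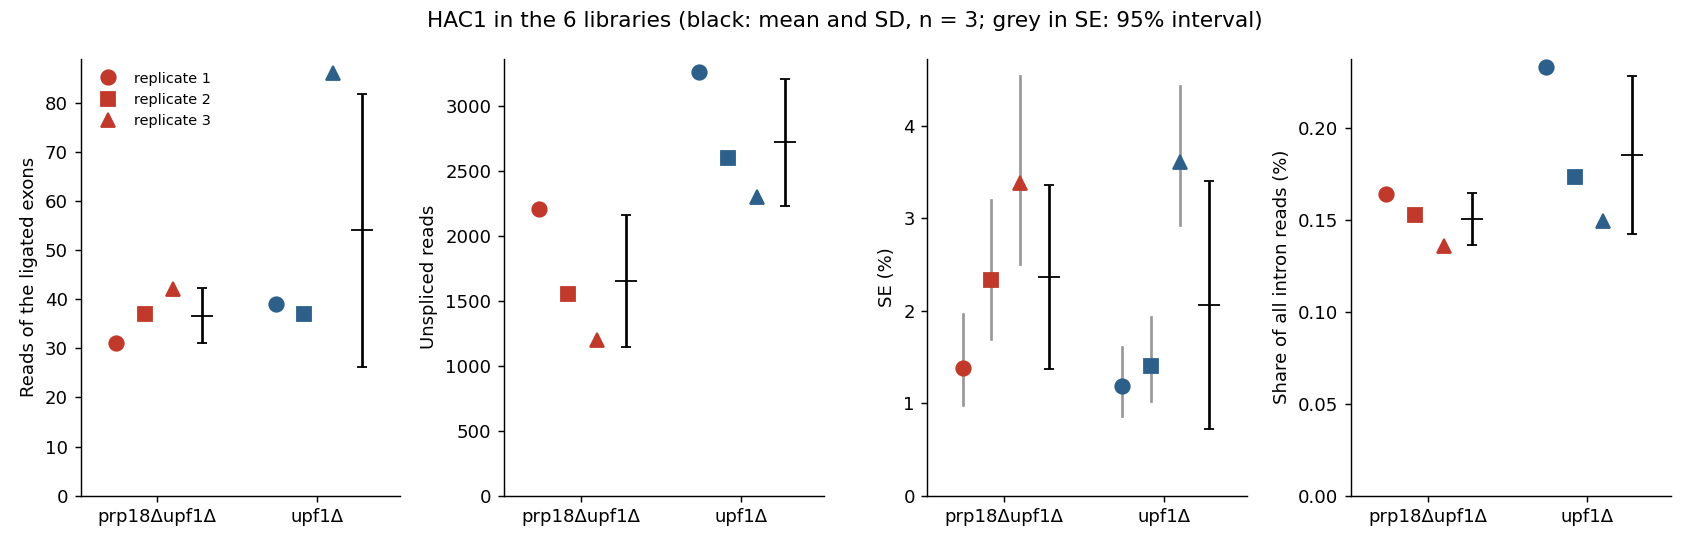
*HAC1* in the 6 libraries, *prp18Δupf1Δ* left and *upf1Δ* right, with reads of the ligated exons, unspliced reads, SE in percent and the share of all intron reads in percent on the 4 vertical axes. Coloured marks are libraries, grey lines are 95% Wilson intervals of the SE and black marks are the mean and SD of 3 libraries; the SE of the strains overlaps, between 1.18% and 3.61%.

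Mean SE was 2.37 ± 0.998% in *prp18Δupf1Δ* and 2.06 ± 1.34% in *upf1Δ* (SD, n = 3 each). The difference of 0.302 percentage points was within the spread of the replicates (two-sided exact permutation test, p = 0.9, where 3 libraries against 3 cannot go below 0.1). Its sign rested on single libraries: it was -0.206 points without *prp18Δupf1Δ* replicate 3, -0.139 without *upf1Δ* replicate 1 and -0.0284 without *upf1Δ* replicate 2. There were 71.2, 41.9 and 28.6 unspliced reads for each spliced read in *prp18Δupf1Δ*, against 83.5, 70.2 and 26.7 in *upf1Δ*.

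Replicates of a strain differed in *HAC1* SE by more than counting error. The chi-square per degree of freedom among replicates was 7.63 in *prp18Δupf1Δ*, where the median intron had 13.5 and 167 of 272 introns were above *HAC1*. In *upf1Δ* it was 24.3, where the median intron had 3.78 and 28 introns were above *HAC1*. On the log2 scale of the spliced to unspliced ratio, the within-strain SD of *HAC1* was 0.78, against a median of 0.47 for the other 271 introns, of which 49 had a larger one. Whether the replicates came from separate cultures is not given in the sources used here, so a p value speaks only of the spread among these libraries, which may be technical.

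The ligated exons were seen by many different reads. The junction had 33, 38 and 49 reads with a gapped alignment in *prp18Δupf1Δ*, and 40, 41 and 99 in *upf1Δ*, in 26, 29 and 30 distinct alignments, against 26, 25 and 54. No alignment held more than 4 reads in *prp18Δupf1Δ* or more than 12 in *upf1Δ*. At least 20 nt on both sides of the junction were covered by 18, 29 and 25 reads in *prp18Δupf1Δ* and by 22, 29 and 44 in *upf1Δ*. For all 300 gapped reads the alignment kept was that of STAR, the aligner that is guided by annotated introns. For 0 it was that of BBMap, the aligner that is not. At equal scores the authors' method keeps an annotated junction over another, so these counts do not show that BBMap failed to align the reads. A further 3 reads, none free of mismatches near the junction, were placed by BBMap alone with the same join written 1 base upstream. Over the other introns the median share placed by STAR alone was 30.4% (quartiles 11.3% and 97.6%). Of 281 introns seen spliced, 4 stood at 100%, the others being *PCH2*, *MND1* and *LDS2* with 23, 19 and 10 gapped reads.

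While *HAC1* stayed within its spread, most introns of the same libraries were spliced less at their annotated junction without Prp18p. For 272 introns, the spliced and unspliced counts were set against each other between the strains in edgeR (quasi-likelihood test, library as a term). It called 222 introns lower in *prp18Δupf1Δ* (81.6% of those tested) and 0 higher (0.0%), with 0 higher also at an unadjusted p under 0.05 and 0 by DESeq2 and by limma. *HAC1* was not called (adjusted p = 0.640 by edgeR). Its ratio of spliced to unspliced reads, *prp18Δupf1Δ* over *upf1Δ*, had a log2 change of 0.28 (SE of the estimate 0.53, 95% interval -0.95 to 1.51), a ratio of 1.21-fold with an interval of 0.519 to 2.84-fold. The interval thus takes in a fall to 0.519 of the *upf1Δ* ratio as well as a rise, and the missing call does not show that *HAC1* was unchanged.

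The median log2 change of the other 271 introns was -1.92, which is 0.264-fold, with quartiles of -2.61 and -1.32 and a range of -6.16 to 0.63. *HAC1* lay 2.20 above that median, at the 99.3rd percentile. Of the 271 others, 228 (84.1%) had a change below the lower end of the *HAC1* interval, 43 lay inside it and 0 above it. Only *RPS26A*, a protein of the small ribosomal subunit, and *MPT5*, an RNA-binding protein of the Puf family, had a higher estimate than *HAC1*, and 7 introns besides *HAC1* were above 0. Leaving out each library in turn moved the *HAC1* log2 change between -0.046 (without *upf1Δ* replicate 1) and 0.81 (without *upf1Δ* replicate 3), and its percentile between 95.2 and 100.

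**Figure D2:**
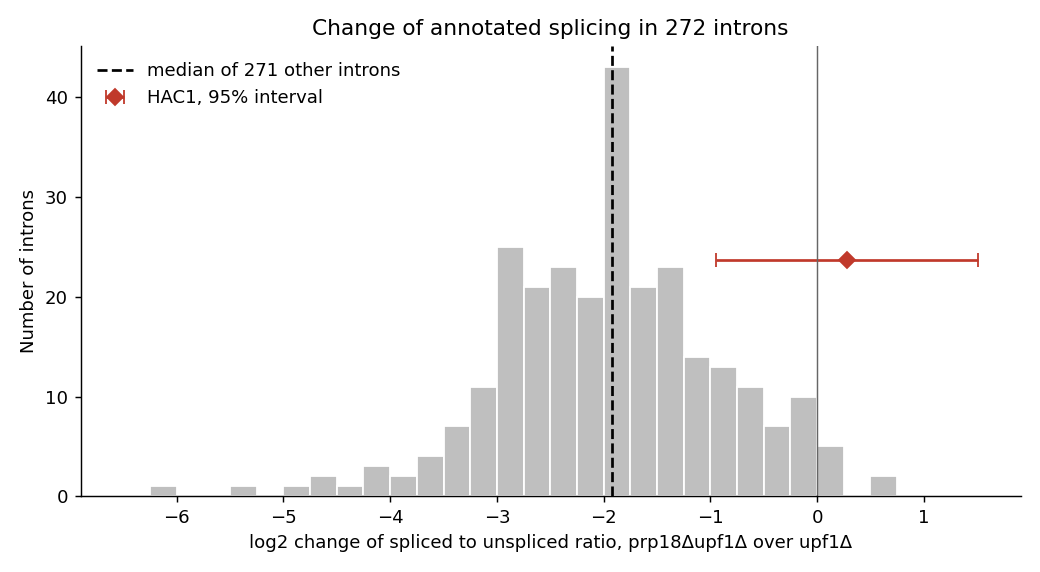
Number of introns (vertical axis) by log2 change in the ratio of spliced to unspliced reads, *prp18Δupf1Δ* over *upf1Δ* (horizontal axis), for 271 introns in grey, with *HAC1* as a diamond with its 95% interval at a height without meaning. The dashed line is the median of the others, -1.92; *HAC1* lies at 0.28, in the right tail.

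The same was read library by library. The median SE of the other introns was 87.3%, 79.6% and 79.6% in *prp18Δupf1Δ*, against 95.7%, 94.0% and 94.3% in *upf1Δ*, with no overlap. The *HAC1* log2 ratio was -6.13, -5.37 and -4.82 in *prp18Δupf1Δ*, against -6.37, -6.11 and -4.73 in *upf1Δ*. Set against the median of the other introns in its own library, *HAC1* stood at -8.90, -7.33 and -6.78 in *prp18Δupf1Δ*, against -10.81, -10.06 and -8.75 in *upf1Δ*. The distance was thus shorter in *prp18Δupf1Δ* by 2.20 on average, while replicate 1 of *prp18Δupf1Δ* overlapped replicate 3 of *upf1Δ* (two-sided exact permutation test, p = 0.2).

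Libraries with the same replicate number deviated together over the introns, so the change was also taken within replicate numbers. These pairs were taken from the data, and replicates 2 and 3 deviated together about as closely across numbers. The *HAC1* log2 change was 0.24, 0.75 and -0.09 for numbers 1, 2 and 3, and the median of the others -1.61, -2.02 and -1.98. *HAC1* was above that median by 1.85, 2.76 and 1.89, higher in 3 of 3 pairs (exact sign-flip permutation test, p = 0.25, the smallest that 3 pairs allow). The others fell in 255, 264 and 263 of 271 introns, and 8, 0 and 9 of them were above *HAC1*. With the replicate number as a block in the edgeR fit, the *HAC1* log2 change was 0.27 with an SE of the estimate of 0.24, and the call was the same. Without replicate 1 of both strains it was 0.20.

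The same libraries differ in what their unspliced reads hold. Per 1000000 annotated junction reads, *HAC1* had 1763, 1719 and 1515 unspliced reads in *prp18Δupf1Δ*, against 2417, 1819 and 1529.6 in *upf1Δ*, with overlap. Its ligated reads were 24.8, 41.1 and 53.0 on the same scale in *prp18Δupf1Δ*, against 28.9, 25.9 and 57.2 in *upf1Δ*, also with overlap. All other introns together had 89153, 151697 and 152715 unspliced reads on this scale in *prp18Δupf1Δ*, against 46060, 61484 and 59726 in *upf1Δ*, with no overlap. *HAC1* therefore made up 1.93%, 1.12% and 0.980% of all unspliced reads in *prp18Δupf1Δ*, against 4.88%, 2.85% and 2.48% in *upf1Δ*. These shares did not overlap either (means 1.34 ± 0.516% and 3.41 ± 1.29%, SD, n = 3 each, two-sided exact permutation test, p = 0.1, the smallest possible).

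The introns nearest to *HAC1* in SE were set beside it, although each had a higher mean SE than *HAC1* in *upf1Δ*. SE counts the annotated junction alone, so RNA spliced at other sites is in neither of its terms. In *REC107*, *MTR2* and *GCR1* the study found more mRNA from alternative 3′ sites than from the annotated sites without Prp18p. Their low SE is thus not a measure of unspliced RNA alone. Of the 271 others, 4, 5 and 7 had a lower SE than *HAC1* in the *prp18Δupf1Δ* libraries, against 0, 0 and 1 in the *upf1Δ* libraries. The 5 introns with the lowest mean SE in *upf1Δ* were in *REC107*, *GCR1*, *MTR2*, *IWR1* and *MCR1*, with mean SE of 3.20% to 16.7% there. Of these 5, 4 were called lower, a share near the 81.6% of all introns tested. *REC107*, a gene of meiotic recombination, had an SE of 0.758 ± 0.128% in *prp18Δupf1Δ* and 3.20 ± 0.335% in *upf1Δ* (SD, n = 3 each; log2 change -2.08, edgeR adjusted p = 0.00065). *MTR2*, which acts in mRNA export, had 1.87 ± 0.128% in *prp18Δupf1Δ* and 8.65 ± 0.573% in *upf1Δ* (-2.31). *IWR1*, needed for import of RNA polymerase II into the nucleus, had 0.637 ± 0.163% in *prp18Δupf1Δ* and 16.2 ± 5.05% in *upf1Δ* (-4.89). In all 3 the strains were apart. *MCR1*, a mitochondrial cytochrome b5 reductase, was lower too, with 7.26 ± 2.41% in *prp18Δupf1Δ* and 16.7 ± 7.98% in *upf1Δ* (-1.31, edgeR adjusted p = 0.032). *GCR1*, a transcription factor of glycolytic genes, had 1.64 ± 1.78% in *prp18Δupf1Δ* and 4.32 ± 1.55% in *upf1Δ*, with overlapping libraries, and was not called (-1.37, edgeR adjusted p = 0.096).

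**Figure D3:**
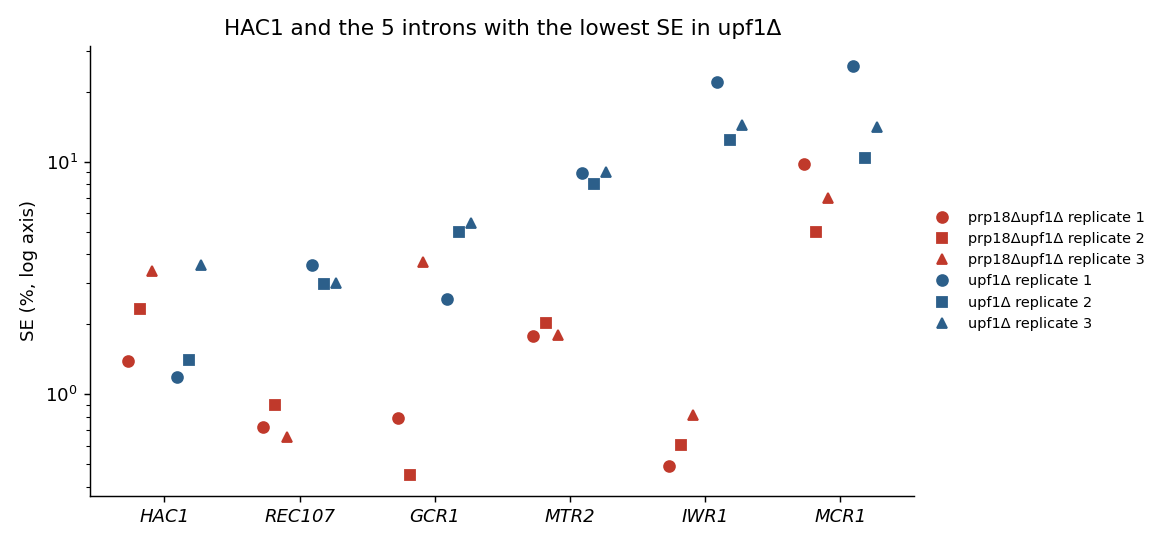
SE in percent on a log axis, for *HAC1* and the 5 introns with the lowest mean SE in *upf1Δ*, with each library as a mark, *prp18Δupf1Δ* left in red and *upf1Δ* right in blue. The strains overlap in *HAC1* and *GCR1* and are apart in *REC107*, *MTR2*, *IWR1* and *MCR1*.

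**Figure D4:**
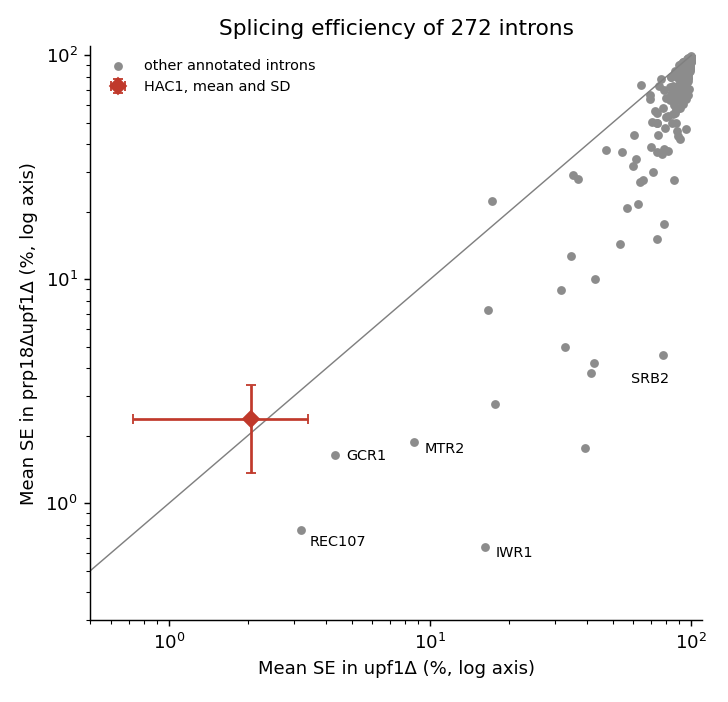
Mean SE in *upf1Δ* (horizontal, log axis, percent) and in *prp18Δupf1Δ* (vertical, log axis, percent) of 272 introns, with *HAC1* as a diamond with the SD of 3 libraries and a line of equal values. *HAC1* lies beside the line at 2.06% and 2.37%, and most introns lie under it.

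Introns read about as often as *HAC1* were also compared. The 3 introns closest in spliced plus unspliced reads were all called lower, as were 81.6% of all introns tested. *ARF2*, a small GTPase of vesicle traffic, had an SE of 63.0 ± 2.49% in *prp18Δupf1Δ* and 93.1 ± 1.31% in *upf1Δ* (-2.99). *RPO26*, a subunit shared by the nuclear RNA polymerases, had 79.8 ± 3.13% in *prp18Δupf1Δ* and 93.9 ± 0.631% in *upf1Δ* (-1.96), and *RPS25B*, a ribosomal protein gene, 73.0 ± 8.09% in *prp18Δupf1Δ* and 90.3 ± 3.00% in *upf1Δ* (-1.78). Their spliced reads far outnumber those of *HAC1*, so the precision of *HAC1* is that of its 31 to 86 ligated reads per library. At the ends of the range, *SRB2*, a Mediator subunit, fell by 6.16 and *SPT14* fell by 5.28 on the log2 scale. *ACT1* had 95.9 ± 0.673% in *prp18Δupf1Δ* and 99.0 ± 0.345% in *upf1Δ* (-2.16). *RPS26A* had 73.3 ± 5.56% in *prp18Δupf1Δ* and 64.2 ± 5.29% in *upf1Δ* (0.63, edgeR adjusted p = 0.091), and *MPT5* 22.3 ± 14.0% in *prp18Δupf1Δ* and 17.3 ± 9.63% in *upf1Δ* (0.54, edgeR adjusted p = 0.525), so neither was called.

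Counted without a model, 225 introns (82.7% of 272) had every *prp18Δupf1Δ* library below every *upf1Δ* library in SE and 1 (0.368%), in *RPL25*, had every one above. *HAC1* was among the introns whose strains overlapped, with 45 others. The introns whose log2 ratio followed *HAC1* most closely over the 6 libraries were those of *MPT5* (Pearson's r = 0.58), *DBP2*, a DEAD-box RNA helicase (0.51), *BMH2*, a 14-3-3 protein (0.38), *GCR1* (0.22) and *QCR10*, a subunit of respiratory complex III (0.21). These are descriptions over 6 libraries of 2 strains, which share depth and replicate number, and none of the 5 introns was called in the splicing test.

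*HAC1* acts on the secretory pathway, and several genes that act in it or serve it carry spliceosomal introns. In a list of 15 such genes, 16 introns were tested and 16 were called lower in *prp18Δupf1Δ* and 0 higher, where 81.6% of all introns tested were called lower. They had a median log2 change of -2.54 (range -5.28 to -1.37), against -1.92 over all introns tested. *SPT14*, which makes the first intermediate of the GPI anchor, had an SE of 1.76 ± 1.18% in *prp18Δupf1Δ* and 39.0 ± 11.1% in *upf1Δ*. *SEC17*, the α-SNAP of vesicle fusion, had 60.8 ± 8.31% in *prp18Δupf1Δ* and 92.9 ± 2.43% in *upf1Δ* (-3.11). *ERV41*, a protein of COPII vesicles, had 67.7 ± 9.98% in *prp18Δupf1Δ* and 94.3 ± 1.93% in *upf1Δ*, and *SEC14*, a lipid transfer protein of the Golgi, 79.4 ± 2.94% in *prp18Δupf1Δ* and 96.4 ± 0.924% in *upf1Δ* (-2.83). In transcript level, 3 of the 16 were called higher, a share near the 18.8% of all introns tested. None was called lower, where 12.9% of all introns tested were. The median log2 change in level was 0.22, against 0.04 over all. This level counts an unspliced RNA at both ends and a spliced one once, so it depends on splicing.

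*HAC1* was a mid-ranking transcript of the tables. Its spliced plus unspliced reads made up 0.164%, 0.153% and 0.136% of all such reads in *prp18Δupf1Δ*, against 0.233%, 0.173% and 0.149% in *upf1Δ*, with overlap (two-sided exact permutation test, p = 0.3). It ranked 114, 127 and 131 among the 277 to 281 introns listed in a *prp18Δupf1Δ* library, and 101, 115 and 120 among the 285 to 288 listed in an *upf1Δ* library. Counting spliced reads and the reads across both unspliced ends, scaled by TMM, gave 3193, 2466 and 2165 counts per 1000000 in *prp18Δupf1Δ*, against 4893, 3256 and 2780 in *upf1Δ*. The first *prp18Δupf1Δ* library was above the third *upf1Δ* library, and within each replicate number *prp18Δupf1Δ* was lower, by log2 differences of -0.62, -0.40 and -0.36.

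The edgeR test of this level gave *HAC1* a log2 change of -0.48 (SE of the estimate 0.24, 95% interval -1.04 to 0.07, adjusted p = 0.155), 0.716-fold, which is not past the threshold. The fit called 35 of 272 lower (12.9%) and 51 higher (18.8%). With the replicate number as a block *HAC1* was past the threshold, at -0.46 with an SE of the estimate of 0.080 (edgeR adjusted p = 0.00023), in a fit that called 85 lower (31.2%) and 89 higher. That block rests on pairs taken from the same data. It was past it too without *prp18Δupf1Δ* replicate 1 (-0.70, edgeR adjusted p = 0.041) and without replicate 1 of both strains (-0.38, edgeR adjusted p = 0.0028). Without *upf1Δ* replicate 1 it was -0.21 (edgeR adjusted p = 0.413). The level is relative to the other intron-containing transcripts of a bulk sample, where fewer cells that carry the RNA and less RNA per cell cannot be told apart, and it includes the unspliced reads, of which the other introns together had more in *prp18Δupf1Δ*. With the unspliced reads entered as their mean in place of the reads across both ends, the *HAC1* log2 change was -0.36 (edgeR adjusted p = 0.280).

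The 20 other junctions that overlap the *HAC1* intron had few reads. They had 1, 2 and 1 reads in *prp18Δupf1Δ* and 13, 6 and 3 reads in *upf1Δ*, so that every *prp18Δupf1Δ* library was below every *upf1Δ* library (two-sided exact permutation test, p = 0.1, the smallest possible). As a percentage of the annotated reads, which the study calls FAnS, they came to 3.23%, 5.41% and 2.38% in *prp18Δupf1Δ*, against 33.3%, 16.2% and 3.49% in *upf1Δ*, with overlap (two-sided exact permutation test, p = 0.2). As a percentage of spliced plus unspliced reads they were 0.0447%, 0.126% and 0.0805% in *prp18Δupf1Δ* and 0.394%, 0.228% and 0.126% in *upf1Δ* (exact permutation test, p = 0.2). The first *upf1Δ* library alone held 13 of the 26 reads, and without it the difference of mean FAnS, -14.0 points over all libraries, was -6.18 points. It was -3.42 points (exact permutation test, p = 1.0) when only junctions past the filter on overhangs and mismatches were counted. All reads of those junctions were in *upf1Δ* replicate 1, so this value rests on that library alone.

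Of the 20 junctions, 15 had 1 read and 3 were seen in more than 1 library. No junction reached the minimum of 6 gapped reads, 12 had no read free of mismatches near the junction, and 3 passed the filter on overhangs and mismatches. None was therefore tested. None of the 20 started with GT and none ended in AG, whereas 50.6% of the 4993 other junctions over all introns started with GT and 31.7% ended in AG. The start is partly fixed in advance, since 7 of the 20 begin at the annotated 5′ cut or 1 base from it, which has no GT. Other junctions that keep an annotated 5′ end begin with GT in nearly all other introns. Per 1000 spliced plus unspliced reads, *HAC1* had 0.79 reads of other junctions in *prp18Δupf1Δ*, where the other 271 introns had a median of 7.36, and 2.65 in *upf1Δ*, where they had 7.30. *HAC1* was at percentile 1.48 of them in *prp18Δupf1Δ* and 21.0 in *upf1Δ*. This place depends on the denominator, which was mostly unspliced reads for *HAC1* and mostly spliced reads for the median intron. By FAnS, *HAC1* was above all introns together in each library. These had 9376 to 13483 reads of other junctions a library, against 791819 to 1502384 annotated junction reads. The rank of *HAC1* by FAnS was not taken. With the filters applied, 232 of the 271 others kept at least 1 other junction, and so did 45 of the 54 whose level was within 2-fold of *HAC1*, while *HAC1* kept 0.

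Several of the other junctions begin at the Ire1p cut, and the sequences that they join are shown because they share the annotated 5′ end. Capitals mark the bases after the join.
*HAC1* 75840 to 76015: attggcgtaatccagATGCTAGTTTTTCCT
*HAC1* 75840 to 76370: attggcgtaatccagTAGCTCTTGAACAAG
*HAC1* 75839 to 75941: aattggcgtaatccaGATGGGGGAGGAGCC
*HAC1* 75839 to 76090: aattggcgtaatccaGAAGCGCAGTCAGGT
The names give the first and last base of the gap on chromosome VI of R64. The last of these is the annotated product itself, since the base before the intron and the last base of the intron are both G and the gap can be written 1 base upstream with no change in the joined sequence. It had 1 read in each of 3 libraries, all placed by BBMap, in *prp18Δupf1Δ* replicates 2 and 3 and *upf1Δ* replicate 2. None of the 3 reads was free of mismatches near the junction, and the junction did not pass the filter on overhangs and mismatches. Adding these 3 reads to the annotated ones gave a log2 change of 0.29 in place of 0.28. Leaving them out of the other junctions left 19 junctions, with 1, 1 and 0 reads in *prp18Δupf1Δ* and 13, 5 and 3 in *upf1Δ*, or 0.39 per 1000 reads in *prp18Δupf1Δ* and 2.53 in *upf1Δ*. The FAnS was then 3.23%, 2.70% and 0% in *prp18Δupf1Δ*, against 33.3%, 13.5% and 3.49% in *upf1Δ*, with no overlap (difference of means -14.8 points, two-sided exact permutation test, p = 0.1, the smallest possible). Leaving out this junction was chosen after the data were seen, and the annotated reads in the ratio were kept as before. With all 20 junctions the FAnS of the strains overlapped (two-sided exact permutation test, p = 0.2).

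In 7 of the 20 junctions, with 11 of the 26 reads, the gap begins at the annotated 5′ cut or can be shifted onto it by 1 base. Leaving out the annotated product, 6 junctions with 8 reads remain, 5 of them with a read free of mismatches near the junction. The gap from 75840 to 76092, with 1 read, ends 1 base past the annotated 3′ cut. Its joined sequence is that of the annotated product with 1 A fewer, and whether it is that product was not tested. All 8 reads were in *upf1Δ*, with 6, 1 and 1 in its replicates 1, 2 and 3, and 0 were in *prp18Δupf1Δ*. The 8 reads were 0.0962% of 8315 spliced plus unspliced reads in *upf1Δ* (95% exact interval 0.0415 to 0.189%). In *prp18Δupf1Δ*, 0 of 5065 allows a share of up to 0.0592%, an approximate upper 95% bound of 3 counts over the total. This bound was not made as the exact interval was, so the limits are not matched. Both limits cover counting error only, over reads pooled from 3 libraries a strain, and the difference was not tested on them. The gap from 75840 to 76015 was found once in *upf1Δ* replicate 1 and once in replicate 3, both times by both aligners. The gap from 75840 to 76370 reaches past the coding end of exon 2. None of the 6 had CNGNNGN across its 3′ end. The other 13 junctions, with 15 reads, began elsewhere, and 3 of them had a read free of mismatches near the junction.

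**Figure D5:**
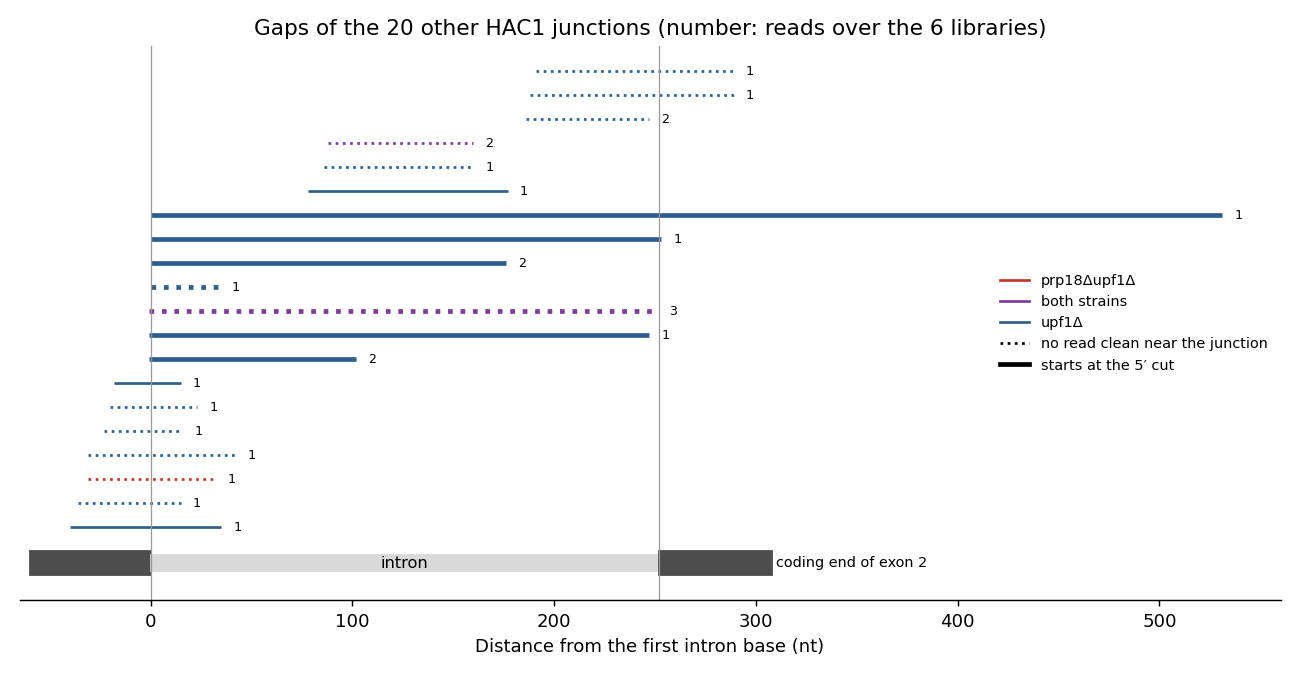
Gaps of the 20 other *HAC1* junctions as lines along the distance from the first intron base in nt (horizontal axis), 1 line a junction, with the number of reads over 6 libraries at its right end. Red is *prp18Δupf1Δ* only, violet both strains and blue *upf1Δ* only, dotted lines have no read free of mismatches near the junction, and the 7 thick lines start at the 5′ cut; grey and black boxes are the intron and the coding exons beside it.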

How the data were processed

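RNA from 3 *prp18Δupf1Δ* and 3 *upf1Δ* libraries was sequenced as stranded mRNA. Per the labels, the authors trimmed reads with cutadapt 1.18 and aligned them to R64 with STAR 2.7.0d; their methods add BBMap and keep the better alignment of each read pair. Junction reads were deposited as a raw count, not scaled by the authors. Unspliced reads were deposited as an estimated count, for which the authors averaged the reads that cross the 5′SS with those that cross the 3′SS. Since only that mean is held in the tables, both ends could not be set against each other, and the planned comparison of 3′SS with 5′SS reads was not run. The deposited SE of annotated junctions is a fraction, made by the authors from spliced over spliced plus unspliced reads, and followed from the counts in 12588 of 12588 entries. For other junctions the authors gave SE and FAnS as a ratio of reads, and both were recomputed here from the counts. The first 6 and last 3 bases of all 5274 junctions matched R64.

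The models were run in R 4.3.3 (limma 3.58.1, edgeR 4.0.16 and DESeq2 1.42.0), the hairpins in ViennaRNA 2.7.2 and all else in python 3.11.15 (pandas 2.3.3, scipy 1.17.1, numpy 2.4.6, matplotlib 3.10.9). Only introns listed in all 6 libraries entered the tests, and these needed 10 reads in all and 1 in every library. The minimum of reads took out none of them, since the same 272 were tested without it. The unspliced mean was multiplied by 2 to give a whole count, and edgeR's quasi-likelihood model was fitted to both counts of all 272 introns. Transcript level was the sum of both counts, scaled by TMM. Log2 ratios per library used a pseudocount of 0.5. Adjusted p values are those of Benjamini and Hochberg over all introns tested, with a threshold of 0.05. Single values were compared over all 20 assignments of 3 libraries against 3. Other junctions were to be tested with at least 6 gapped reads, perfect overhangs of 10 bp upstream and 40 bp downstream and 50% of reads free of mismatches within 10 bp. RNA hairpins were folded with default settings.

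Libraries held 791819 to 1250953 annotated junction reads in *prp18Δupf1Δ* and 1347936 to 1502384 in *upf1Δ*. Libraries with the same replicate number deviated together from their strain means over the introns, with correlations of 0.58, 0.31 and 0.38 in the log2 ratio and 0.81, 0.66 and 0.74 in level, so the numbers were taken as pairs from the data. Replicates 2 and 3 correlated about as well across numbers. On simulated data with 272 introns, the splicing test recovered 57% of 2-fold and 100% of 4-fold falls and called 0 of 72 unchanged introns. The simulation gave all introns the same dispersion and had no rises and no pairing of replicates. Its rates do not give the power for *HAC1*, whose within-strain SD was 0.78 against a median of 0.47.

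*HAC1*, the gene lists and the comparison introns were chosen with earlier results of these data known. Comparison introns were the 5 with the lowest SE in *upf1Δ*, the 5 that correlated best with *HAC1*, the 2 largest falls and rises (20 reads in every library each) and the 3 closest in reads, with up to 4 members of a list. *ACT1* and *RPL25* fell outside this rule and were named after their values were seen.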

Additional observations from a re-analysis of the deposited data

How the results depend on the processing

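*HAC1* was not called in annotated splicing under any of the 13 alternatives run (adjusted p between 0.157 and 0.960), and its log2 change was 0.29 with DESeq2, 0.30 with limma, 0.28 with the mean of unspliced reads and 0.27 with the replicate block. The alternative without a minimum of reads tested the same 272 introns and so repeats the main fit. Leaving out each library gave a log2 change of -0.046 to 0.81, with a sign change without *prp18Δupf1Δ* replicate 3 (-0.034) and without *upf1Δ* replicate 1 (-0.046). The SE difference ranged over -0.206 to 1.07 points, and was negative when the third *prp18Δupf1Δ* library (-0.206), the first *upf1Δ* library (-0.139) or the second *upf1Δ* library (-0.0284) was left out. The percentile of *HAC1* ranged over 95.2 to 100, and its distance from the median of the others over 1.73 to 2.82. Introns called lower numbered 189 to 252 with a library left out. Introns called higher numbered 0 to 1 with a library left out, 1 with the replicate block and 2 without replicate 1 of both strains.

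The level of *HAC1* passed the threshold with the replicate block (-0.46), without replicate 1 of both strains (-0.38) and without *prp18Δupf1Δ* replicate 1 (-0.70), and ranged over -0.70 to -0.21 with a library left out (adjusted p 0.00023 to 0.413 over all alternatives). Transcripts called numbered 86, against 117 with DESeq2, 174 with the block, 212 without replicate 1 of both strains and 39 to 131 with a library left out. Scaling moved the level: TMM without ribosomal protein genes put *HAC1* at -0.80 (adjusted p = 0.0507) and the median of the others at -0.28, and total counts put them at -0.38 and 0.15. Relative to that median *HAC1* was at -0.52 with TMM, -0.51 without ribosomal protein genes and -0.53 with total counts, and at -0.37 with the mean of unspliced reads, where its own change was -0.36 (adjusted p = 0.280). Of the transcripts called, 59.3% were higher with TMM, 24.5% without ribosomal protein genes and 69.9% with total counts. The replicate block changed no other call of *HAC1*. The FAnS difference of the other junctions ranged over -21.1 to -6.18 points with a library left out, and was -5.96 without replicate 1 of both strains, -3.42 with only junctions past the filter on overhangs and mismatches and -14.8 without the junction of the annotated product, a setting chosen after seeing the data. All reads of the junctions past that filter were in *upf1Δ* replicate 1. The causes of these shifts were not tested.

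Counting the unspliced 5′ or 3′ end alone, the balance of both ends and DESeq2 on the other *HAC1* junctions were not run, since the tables hold the mean of both ends and no such junction reached 6 reads. The 31 to 86 ligated reads per library limit what can be seen for *HAC1*, as does the spread between replicates, which exceeded counting error.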
